A study of Sus scrofa with 35 samples.

Results

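The aminoacyl-tRNA synthetases were followed in the blood transcriptome of pigs kept in thermoneutral (TN) or heat stress (HS) conditions. A list of 36 synthetase genes was used, with 20 cytosolic and 16 mitochondrial enzymes. The members were the array probes whose gene name in the scanner files matched a symbol of the list. By this rule 31 of the 36 genes were represented, by 56 of the 60305 probes of the array. Of these probes, 55 were in the authors' table of expressed probes. The probe left out was 1 of the 2 CARS2 probes, which was well above background on 1 of the 35 arrays. YARS2, WARS2, SARS2, EARS2 and VARS2 had no probe of that name. Of the probes named VARS, 2 carried the RefSeq accession of VARS2 and were assigned to VARS2, which gave 32 genes (20 cytosolic and 12 mitochondrial) among 8814 genes tested. For 28 of the 32 genes, every probe in that table was well above background on all 35 arrays.

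Whole blood was taken at slaughter from 35 castrated male pigs, with 1 one-colour array for each pig. They were Creole pigs (CR, 5 TN and 6 HS), Large White pigs (LW, 6 TN and 6 HS) and their F1 crossbred pigs (6 TN and 6 HS), all with free access to feed and moved to the climatic room at 11 weeks of age. TN pigs were kept at 24 °C and HS pigs were exposed for 5 d, or for 4 d in some pigs according to the methods, at 30 °C in the sample labels and 32 °C in the protocol text. TN pigs were slaughtered before the temperature rise, so climate and the order of slaughter cannot be told apart. The study reported a lower feed intake under heat, so temperature and intake cannot be told apart either. Each pig was a separate sample, but pen, slaughter day and parents are not in the labels, and the p-values treat pigs as independent. Whole blood is a mixture of white cells, platelets and immature red cells that still contain RNA. In such bulk samples, fewer cells of a type and less RNA per cell cannot be told apart.

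Aminoacyl-tRNA synthetases attach each amino acid to its own transfer RNA and so supply the ribosome with charged tRNA. Separate enzymes, mostly named with a final 2, serve the mitochondrial ribosome, while KARS and GARS each encode both forms. The enzymes fall into class I and class II by the fold of their catalytic domain, and EPRS carries one domain of each class. Several cytosolic members are held in a multisynthetase complex. Uncharged tRNA activates the kinase GCN2, and its downstream factor ATF4 is known to induce many cytosolic synthetase genes.

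The probes are oligonucleotides of 60 bases. The sequences of 5 probes are shown because the main results turn on them. They belong to the member with the largest change (CARS), to the falling probe of the gene whose probes opposed each other (RARS) and to 3 up-regulated members. No base is in capitals in this set.
CARS: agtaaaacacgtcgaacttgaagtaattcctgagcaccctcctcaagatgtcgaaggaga
RARS, falling probe: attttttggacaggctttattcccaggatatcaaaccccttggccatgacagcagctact
EPRS: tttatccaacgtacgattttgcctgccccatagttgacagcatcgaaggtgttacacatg
FARSA: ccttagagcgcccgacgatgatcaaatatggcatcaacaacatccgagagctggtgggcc
WARS: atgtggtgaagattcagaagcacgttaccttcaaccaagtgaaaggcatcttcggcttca
Of the 55 probes in the table, 52 had distinct sequences, because the paired probes of KARS, IARS and GARS were identical 60-mers. The files placed no probe on a chromosome and gave no strand. Read by eye, the probes of CARS and CARS2, the falling RARS probe and a DARS probe look like the complement of coding sequence. No alignment to transcripts was made, so whether these probes read the mRNA of the named gene was not tested.

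Under HS, 13 of the 32 synthetase genes were up-regulated and 3 were down-regulated at an adjusted p-value below 0.05 (limma, additive model of breed and climate). The rises were small, from 0.13 to 0.33 on the log2 scale. Of the 3 that fell, only CARS changed by more than 0.5. Among all 8814 genes, 40.8% were differentially expressed, 24.5% higher and 16.3% lower. Of the 32 members, 40.6% were higher and 9.38% lower. The median change was 0.13 for the members and 0.05 for all genes. The other 16 members ranged from -0.20 (GARS) to 0.22 (YARS), with adjusted p from 0.0812 upwards. With pen, slaughter day and parents as random effects, the study called a far smaller share of the blood probes. Whether the calls given here would hold in such a model was not tested.

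**Figure D1:**
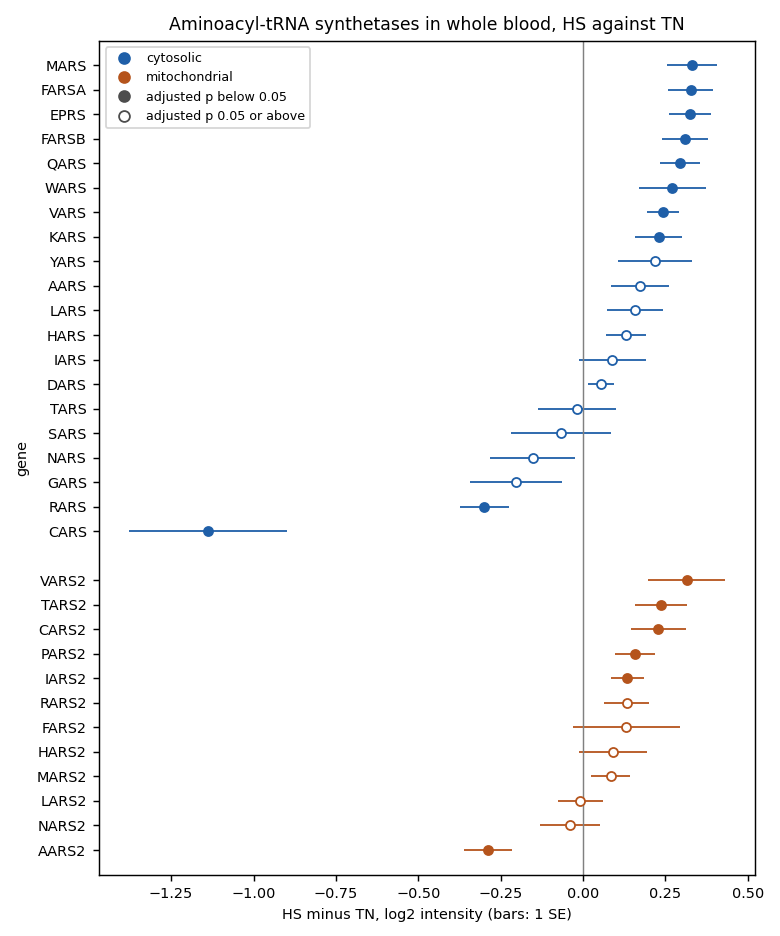
Change in log2 intensity of each synthetase gene under HS minus TN (x axis) for the 20 cytosolic and 12 mitochondrial genes (y axis), with 1 SE as bar and filled points for an adjusted p below 0.05. The 13 genes that rose lie between 0.13 and 0.33, RARS and AARS2 lie near -0.30, and CARS stands alone at -1.14.

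The members were then grouped by the compartment they serve. Of 20 cytosolic genes, 8 rose (MARS, FARSA, EPRS, FARSB, QARS, WARS, VARS, KARS) and 2 fell (CARS, RARS), with a median of 0.17. Of 12 mitochondrial genes, 5 rose (VARS2, TARS2, CARS2, PARS2, IARS2) and 1 fell (AARS2), with a median of 0.13. Class I had 7 of 15 genes higher and 2 lower, against 5 of 16 higher and 1 lower in class II. The 8 members of the multisynthetase complex had a median of 0.19, with EPRS, KARS, MARS and QARS higher, RARS lower, and DARS (0.06), IARS (0.09) and LARS (0.16) past no threshold. These counts are descriptions, and no difference between the classes of enzyme was tested.

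Within the complex, EPRS, which charges both glutamate and proline tRNA, rose by 0.33 ± 0.06 (SE, limma, adjusted p = 0.00121), and 17 of the 18 HS pigs lay above the TN mean of their breed. Its 5 CR TN pigs had log2 intensities of 7.67, 7.68, 8.01, 7.57 and 7.65, against a lowest, median and highest value of 7.50, 7.96 and 8.28 in CR HS pigs. F1 pigs ranged from 7.29 to 7.82 in TN (median 7.57) and from 7.96 to 8.18 in HS (median 8.03). These F1 groups did not overlap. LW pigs ranged from 7.52 to 7.87 in TN (median 7.79) and from 7.79 to 8.28 in HS (median 8.02), with an overlap. All 3 EPRS probes rose, by 0.26, 0.33 and 0.38, each past the threshold in the fit of single probes, where 34.8% of 39072 probes passed (20.1% higher and 14.7% lower).

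QARS, the glutaminyl-tRNA synthetase, rose by 0.29 ± 0.06 (SE, limma, adjusted p = 0.00121). The CR TN pigs had 11.83, 11.53, 12.001, 11.69 and 11.79, and the CR HS pigs 11.72 to 12.18 with a median of 12.02. F1 pigs went from 11.31 to 11.93 in TN (median 11.66) and from 11.83 to 12.18 in HS (median 12.09). LW pigs had 11.69 to 12.03 in TN (median 11.76) and 11.79 to 12.24 in HS (median 12.02). The groups of each breed overlapped, while 16 of the 18 HS pigs exceeded the TN mean of their breed.

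MARS, which charges methionine tRNA for both initiation and elongation, rose by 0.33 ± 0.08 (SE, limma, adjusted p = 0.00179). In F1 pigs the range was 9.50 to 10.09 in TN (median 9.93) and 10.17 to 10.43 in HS (median 10.32), without overlap. The CR TN values were 9.77, 9.85, 10.18, 9.82 and 9.94, and CR HS pigs ranged from 9.54 to 10.52 (median 10.34). LW pigs ranged from 9.69 to 10.09 in TN (median 9.92) and from 9.73 to 10.38 in HS (median 10.19). The single MARS probe shares 20 bases with a probe of the neighbouring gene DDIT3, on the opposite strand. The run is given in capitals as each probe has it, because both genes are followed below.
MARS, shared with the DDIT3 probe on the opposite strand: GGATTTGGGCAGTAATAAAT
DDIT3, the same bases as its probe has them: ATTTATTACTGCCCAAATCC
The 2 probes moved in opposite directions. The DDIT3 probe fell by 0.42 (limma, single probes, adjusted p = 0.0111), and another DDIT3 probe without this run fell by 0.27 (adjusted p = 0.0221). On the DDIT3 probe with the run, F1 TN replicate 4 read 10.46, and the next F1 TN pig 9.39.

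KARS, the lysyl-tRNA synthetase of both cytosol and mitochondria, was the fourth member of the complex that rose, by 0.23 ± 0.07 (SE, limma, adjusted p = 0.0113). Its effect was 0.42 in F1, 0.24 in CR and 0.02 in LW pigs.

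Outside the complex, both subunits of the cytosolic phenylalanyl-tRNA synthetase rose by nearly the same amount. FARSA, the catalytic subunit, rose by 0.33 ± 0.07 (SE, limma, adjusted p = 0.0013). FARSB, its partner subunit, rose by 0.31 ± 0.07 (adjusted p = 0.00163), with both of its probes past the threshold (0.26 and 0.36). For FARSA, CR TN pigs had 7.82, 7.83, 8.20, 7.73 and 8.01 and CR HS pigs 7.74 to 8.45 (median 8.29). F1 pigs had 7.55 to 8.14 in TN (median 7.81) and 8.13 to 8.34 in HS (median 8.28), so that the groups overlapped by a single pair of pigs. LW pigs had 7.70 to 8.11 in TN (median 7.93) and 7.84 to 8.43 in HS (median 8.28).

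For FARSB, CR TN pigs had 9.59, 9.53, 9.88, 9.83 and 9.83, and CR HS pigs 9.26 to 10.22 (median 9.96). F1 pigs had 9.31 to 9.91 in TN (median 9.54) and a narrow 9.998 to 10.11 in HS (median 10.05), without overlap. LW pigs had 9.54 to 9.96 in TN (median 9.71) and 9.83 to 10.18 in HS (median 9.99). In both subunits the F1 HS pigs were the tightest group, with an SD of 0.07 for FARSA and 0.04 for FARSB. FARS2, the mitochondrial enzyme for the same amino acid, was at 0.13 ± 0.16 (adjusted p = 0.529).

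VARS, the cytosolic valyl-tRNA synthetase, rose by 0.24 ± 0.05 (SE, limma, adjusted p = 0.00121), and each of the 18 HS pigs exceeded the TN mean of its breed. CR TN pigs had 9.41, 9.46, 9.44, 9.34 and 9.63, and CR HS pigs 9.48 to 9.87 (median 9.59). F1 pigs had 9.17 to 9.57 in TN (median 9.42) and 9.47 to 9.89 in HS (median 9.63). LW pigs had 9.23 to 9.58 in TN (median 9.42) and 9.62 to 9.88 in HS (median 9.71). VARS was the only member whose LW groups did not overlap, as was the case for 0.806% of all genes. These values are means of 3 probes, of which 1 was well above background on only 27 of 35 arrays. The others averaged 11.40 and 11.64, and each rose by 0.26 (limma, single probes, adjusted p = 0.00721 and 0.00829). A further probe of the VARS transcript, which shared 55 bases with a VARS probe, rose by 0.33 (adjusted p = 0.00387), while the probe for its antisense strand was at -0.04 (adjusted p = 0.627).

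VARS2, the mitochondrial valyl-tRNA synthetase, rose by 0.31 ± 0.12 (SE, limma, adjusted p = 0.0307), but was the 1 member of the 16 without the same sign in all 3 breeds. CR TN pigs had 8.88, 8.70, 8.42, 8.47 and 8.76 and CR HS pigs 8.04 to 9.06 (median 8.59), a mean difference of -0.11. F1 pigs had 7.61 to 9.02 in TN (median 8.47) and 8.91 to 9.33 in HS (median 9.07). LW pigs had 8.38 to 9.30 in TN (median 8.69) and 8.73 to 9.36 in HS (median 9.14). The groups of each breed overlapped, and 12 of the 18 HS pigs lay above the TN mean of their breed. Without F1 HS replicate 2, F1 TN replicate 4 or F1 TN replicate 5 the change missed the threshold (adjusted p = 0.0508, 0.0547 and 0.0530). A further probe of the VARS2 transcript, which shared 57 bases with a VARS2 probe, was at 0.30 (limma, single probes, adjusted p = 0.0571), and at -0.11 in CR pigs. On its antisense strand, another probe, above background on 25 of 35 arrays, fell by 0.39 (adjusted p = 0.00159).

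WARS, the tryptophanyl-tRNA synthetase and a known interferon-gamma target, rose by 0.27 ± 0.10 (SE, limma, adjusted p = 0.0305). CR TN pigs had 6.64, 6.52, 6.62, 6.39 and 6.40, and CR HS pigs 6.57 to 7.12 (median 6.93). F1 pigs had 5.89 to 7.42 in TN (median 6.43) and 6.73 to 7.04 in HS (median 6.84), and 1 F1 TN pig was above all F1 HS pigs. LW pigs had 6.06 to 6.97 in TN (median 6.58) and 6.09 to 6.87 in HS (median 6.61). Without F1 TN replicate 1 or F1 TN replicate 3 the change missed the threshold (adjusted p = 0.0564 and 0.0514). A second probe with the identical 60 bases, named in the files by a gene number of WARS, rose by 0.35 (limma, single probes, adjusted p = 0.00405). On this second probe the F1 TN pig that stood above all F1 HS pigs read 6.67, inside the F1 HS range of 6.56 to 7.01.

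TARS2, the mitochondrial threonyl-tRNA synthetase, rose by 0.24 ± 0.08 (SE, limma, adjusted p = 0.0168). CR TN pigs had 14.69, 14.36, 14.78, 14.50 and 14.83 and CR HS pigs 14.19 to 15.15 (median 14.96). F1 pigs had 14.12 to 14.83 in TN (median 14.56) and 14.49 to 15.11 in HS (median 14.94). LW pigs had 14.67 to 14.91 in TN (median 14.78) and 14.83 to 14.99 in HS (median 14.94). The 6 groups overlapped within each breed. The single TARS2 probe shared runs of 18 to 21 bases on the same strand with 10 probes of other names, and the longest run is given because it bears on what the probe can be assigned to.
TARS2, shared with A_72_P003731: AGGAGTTCCCTGGTGGCCTAG
Capitals mark that all 21 bases are shared. These 10 probes changed by 0.12 to 0.27 (median 0.22), and 6 of them passed the threshold (limma, single probes), against 34.8% of all probes (20.1% higher). Because of the shared runs, the value given for TARS2 is uncertain as to its gene.

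CARS, the cysteinyl-tRNA synthetase, had the largest change of all members, -1.14 ± 0.24 (SE, limma, adjusted p = 0.00129). This is a fall by 54.6%, and 17 of the 18 HS pigs were below the TN mean of their breed. CR TN pigs had 9.62, 11.10, 10.14, 10.67 and 10.26. CR HS pigs ranged from 8.03 to 10.43 (median 9.57), with 3 pigs at 8.85 or below and 3 at 10.30 or above. F1 pigs ranged from 10.71 to 11.31 in TN (median 11.17) and from 7.80 to 10.08 in HS (median 9.34). LW pigs ranged from 9.52 to 10.94 in TN (median 10.40) and from 9.64 to 10.30 in HS (median 9.81). The F1 groups were apart, while the CR and LW groups overlapped. CARS also had the largest spread of the members, with a pooled SD within groups of 0.67 against a median of 0.23. It rests on 1 probe, which looks like the complement of coding sequence as said above, so that the fall may not be that of the CARS mRNA.

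RARS, the arginyl-tRNA synthetase of the complex, fell by 0.30 ± 0.07 at gene level (SE, limma, adjusted p = 0.00282), but its 2 probes were differentially expressed in opposite directions, the only such case among the members. The probe printed above fell by 0.82 ± 0.17 (adjusted p = 0.00165), and the other, which starts at base 2021 of the RefSeq transcript, rose by 0.22 ± 0.08 (adjusted p = 0.0373). For the falling probe, CR TN pigs had 8.36, 9.52, 8.9996, 9.77 and 9.19 and CR HS pigs 7.81 to 9.59 (median 8.45). Its F1 pigs had 9.47 to 10.02 in TN (median 9.66) and 7.35 to 8.91 in HS (median 8.32), without overlap. Its LW pigs had 8.60 to 9.50 in TN (median 9.21) and 8.36 to 9.36 in HS (median 8.66). For the rising probe, CR TN pigs had 9.70, 9.26, 9.76, 9.67 and 9.85 and CR HS pigs 9.35 to 10.12 (median 9.89). Its F1 pigs had 9.10 to 9.65 in TN (median 9.42) and 9.48 to 10.15 in HS (median 9.90), and its LW pigs 9.47 to 10.14 in TN (median 9.61) and 9.30 to 10.04 in HS (median 9.73). The gene-level fall of RARS is the mean of these opposing probes, and the falling one looks like the complement of coding sequence, so the direction of RARS expression is not settled by these data.

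AARS2, the mitochondrial alanyl-tRNA synthetase, fell by 0.29 ± 0.07 (SE, limma, adjusted p = 0.00308). CR TN pigs had 7.28, 7.63, 7.23, 7.40 and 7.60, and CR HS pigs 6.97 to 7.69 (median 7.32). F1 pigs had 7.52 to 8.05 in TN (median 7.69) and 6.97 to 7.42 in HS (median 7.16), without overlap. LW pigs had 7.31 to 7.68 in TN (median 7.42) and 7.18 to 7.46 in HS (median 7.29). Both AARS2 probes were lower, at -0.41 (limma, single probes, adjusted p = 0.00198) and -0.16 (adjusted p = 0.0762). AARS, its cytosolic counterpart, was at 0.17 ± 0.09 (adjusted p = 0.116).

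**Figure D2:**
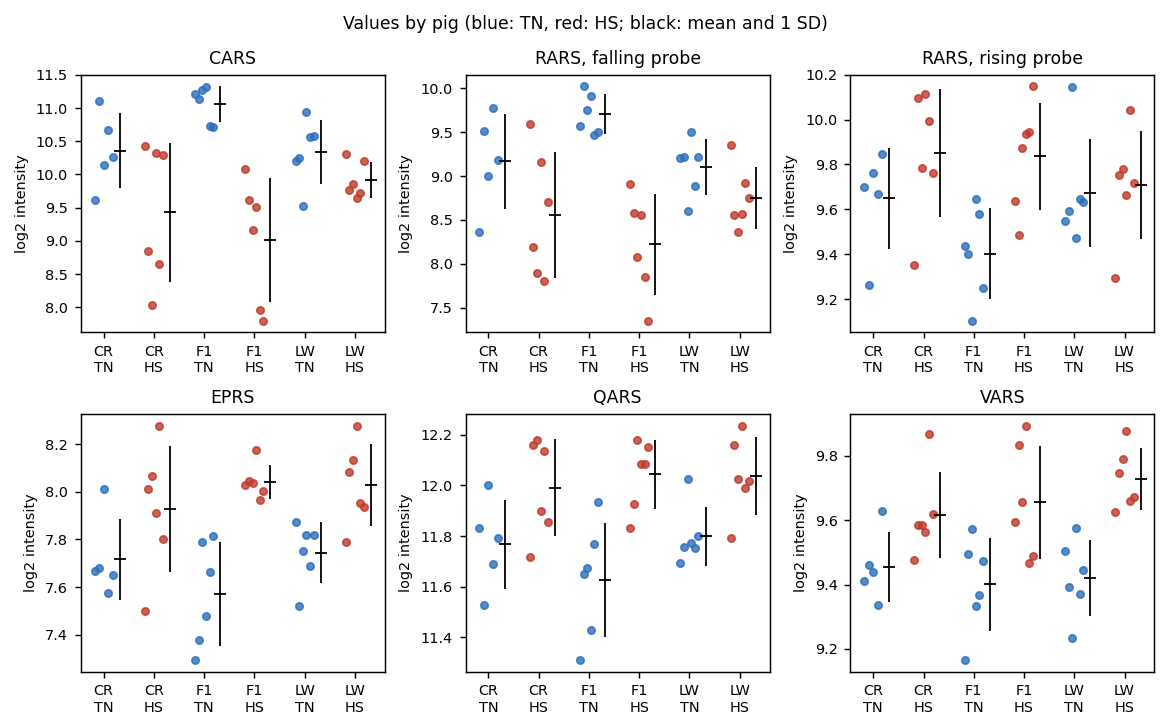
Log2 intensity (y axis) of each pig by breed and climate (x axis) for 4 genes and the 2 RARS probes, with the mean and 1 SD in black. F1 TN and F1 HS pigs do not overlap for CARS, EPRS and the falling RARS probe, whereas the rising RARS probe is higher in F1 HS pigs.

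The remaining 3 up-regulated members were mitochondrial enzymes with small changes. CARS2, at 1 probe that also looks like the complement of coding sequence, rose by 0.23 ± 0.08 (limma, adjusted p = 0.0286), PARS2 by 0.16 ± 0.06 (adjusted p = 0.0353) and IARS2 by 0.13 ± 0.05 (adjusted p = 0.0346). These calls depended on single arrays, and were lost without any 1 of 5 arrays for CARS2, 11 for PARS2 and 8 for IARS2 (adjusted p from 0.0501 to 0.0638). In F1 pigs, the 4 IARS2 probes split into a pair at 0.52 and 0.56 (adjusted p = 0.00842 and 0.00672, single probes) and a pair at -0.06 and 0.07 (adjusted p = 0.624 and 0.704).

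The effect of HS was then followed within each breed. In F1 pigs 14 members rose and 3 fell of the 32, against 44.5% of all genes differentially expressed (24.7% higher, 19.8% lower). Neither in CR nor in LW pigs did a member pass, with 0 of 32 in each (limma), as did 0.0% of all genes, and 6 members in each breed had an unadjusted p below 0.05. HARS, the histidyl-tRNA synthetase, and YARS, the tyrosyl-tRNA synthetase, were differentially expressed in F1 pigs without passing in the additive model. HARS was 8.43 to 8.67 in F1 TN pigs (median 8.56) and 8.79 to 8.96 in F1 HS pigs (median 8.81), an effect of 0.28 ± 0.10 (adjusted p = 0.0271). YARS was 7.90 to 8.68 in F1 TN pigs (median 8.27) and 8.29 to 9.15 in F1 HS pigs (median 8.76), an effect of 0.48 ± 0.18 (adjusted p = 0.033). HARS groups did not overlap in F1 pigs and YARS groups did. The call of HARS was lost without F1 TN replicate 1 (adjusted p = 0.0615) or F1 HS replicate 4 (adjusted p = 0.0528), and that of YARS without any 1 of 6 F1 pigs (TN replicates 1, 2 and 3 and HS replicates 2, 5 and 6, adjusted p from 0.0517 to 0.0919).

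The effect on CARS was -2.04 ± 0.37 in F1, -0.93 ± 0.38 in CR and -0.43 ± 0.37 in LW pigs. AARS2 had -0.57 ± 0.11, -0.13 ± 0.12 and -0.15 ± 0.11 in the same order. VARS2 had 0.68 ± 0.18, -0.11 ± 0.19 and 0.34 ± 0.18. Of the 16 members called in the additive model, 15 had the same sign in the 3 breeds. The F1 groups did not overlap for 8 of the 32 members (CARS, RARS, AARS2, EPRS, FARSB, MARS, HARS, IARS2), against 13.8% of all genes, and the CR groups overlapped for all 32, against 0.499% of genes without overlap.

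**Figure D3:**
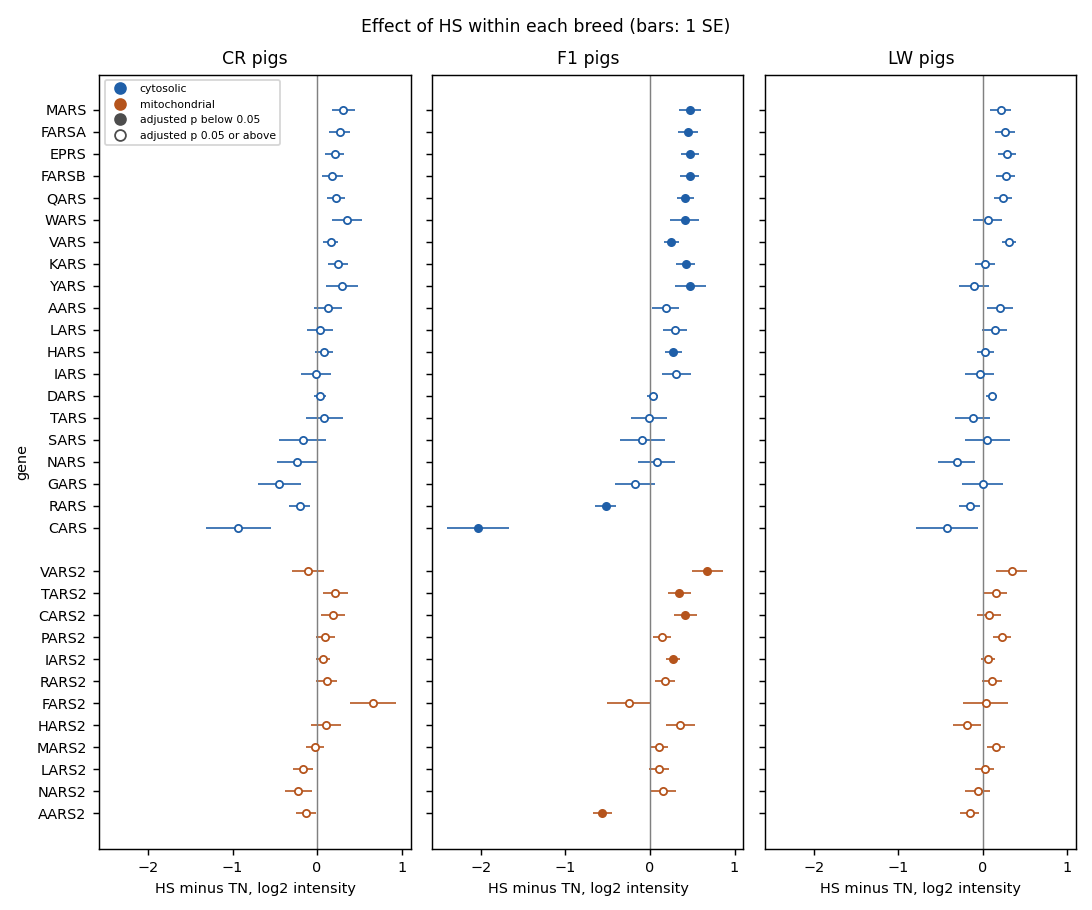
Effect of HS in log2 intensity (x axis) on each synthetase gene (y axis) in CR, F1 and LW pigs, with 1 SE as bar and filled points for an adjusted p below 0.05. Filled points occur in F1 pigs only (17 genes), and CARS lies at -2.04 in F1, -0.93 in CR and -0.43 in LW pigs.

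A difference in the HS effect between breeds was not shown for any member. No member passed the interaction of breed and climate (limma, 0 of 32, and 0.0% of all genes), with 3 members at an unadjusted p below 0.05, namely CARS (adjusted p = 0.255), AARS2 (0.255) and VARS2 (0.258). The F1 effect on CARS differed from the LW effect by -1.61 ± 0.52 (adjusted p = 0.111) and from the CR effect by -1.11 ± 0.53 (adjusted p = 0.397). Of the 32 members, 6 had an unadjusted p below 0.05 for F1 against LW, 4 for F1 against CR and 0 for CR against LW, and 0 passed after adjustment in these comparisons.

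Breeds were also compared over both climates. No member passed for CR minus LW (limma, 1.03% of all genes), for F1 minus CR (0.0794%) or for F1 minus LW (0.0%), and 1 member in each comparison had an unadjusted p below 0.05. The smallest adjusted p was that of VARS2, which was lower in CR than in LW pigs by -0.35 ± 0.14 (adjusted p = 0.347).

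The counts under HS fell when F1 pigs were left out or when a measure of the sample entered the model. Without F1 pigs, 0 of 32 members passed, as did 0 of 8814 genes, and 10 members had an unadjusted p below 0.05. The median of the members was then 0.09. CARS was -0.67 without F1 pigs (adjusted p = 0.183), EPRS 0.25 (adjusted p = 0.162) and VARS 0.24 (adjusted p = 0.112). The F1 TN arrays were also the dimmest, with a 75th percentile of the processed intensity of 149.9 ± 28.3 (SD, n = 6) against 238 ± 35.6 in F1 HS pigs and 202 to 228 in the means of the other groups. With this percentile as a covariate, 6 members were higher (EPRS, VARS, QARS, FARSA, FARSB, MARS) and 3 lower (CARS, RARS, AARS2), against 22.2% of all genes. Within F1 pigs and with this covariate, 0 members and 0 of 8814 genes passed (limma), with 11 members at an unadjusted p below 0.05. CARS was then at -1.15 (adjusted p = 0.152) and EPRS at 0.40 (adjusted p = 0.154).

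Erythroid markers moved with these results. Of 11 measured erythroid genes of 14 listed, 0 rose and 5 fell, among them HEMGN (-1.25), EPB42 (-0.92), ALAS2 (-0.74) and TFRC (-0.52), with a median of -0.40. This is 45.5% lower, against 16.3% of all genes. The mean log2 level of the 11 genes ranged from 10.004 to 11.87 in F1 TN and from 9.22 to 10.44 in F1 HS pigs, from 9.82 to 10.96 in CR TN and from 9.58 to 11.01 in CR HS pigs, and from 10.27 to 11.002 in LW TN and from 9.89 to 10.81 in LW HS pigs. With that mean as a covariate, 2 members passed (EPRS at 0.27 and VARS at 0.22, adjusted p = 0.0479 and 0.0478), against 1.58% of all genes. CARS was then at -0.73 (adjusted p = 0.0657), RARS at -0.14 (adjusted p = 0.147), AARS2 at -0.26 (adjusted p = 0.0652) and VARS2 at 0.06 (adjusted p = 0.699). Within F1 pigs and with the covariate, CARS (-1.45, adjusted p = 0.0245), AARS2 (-0.58, adjusted p = 0.0220) and EPRS (0.39, adjusted p = 0.0429) passed, which is 3 of 32 members against 10.5% of all genes. Among markers of other blood cells, 3 of 7 T cell, 2 of 5 B cell and 2 of 5 monocyte genes rose and 1 of 8 cytotoxic genes fell. Of all genes, 24.5% rose and 16.3% fell, and these lists are too short to set their counts apart from those shares. In the neutrophil (6), platelet (5) and plasma cell (4) lists, 0 genes passed. The part of these cell types in the change of the synthetases was not tested.

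**Figure D4:**
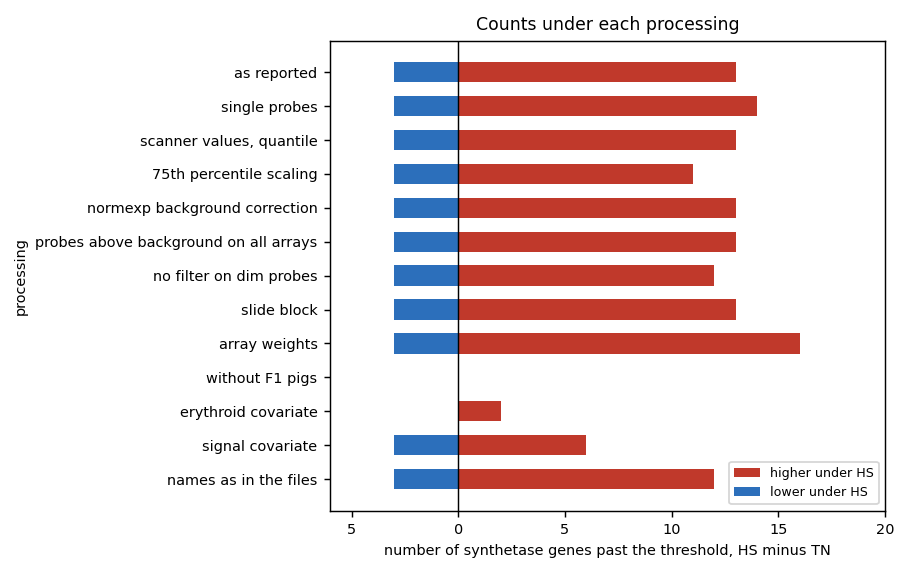
Number of synthetase genes past the threshold for HS minus TN (x axis, higher to the right and lower to the left of 0) under each way of processing (y axis). Counts of 11 to 16 higher and 3 lower are seen in 10 of the 13 settings, against 0 without F1 pigs, 2 with the erythroid covariate and 6 with the signal covariate.

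Arrays lay on 5 slides, and all slides except the last held pigs of the 3 breeds in both climates. Within slides, the median HS minus TN difference of the 32 members was 0.03, 0.20, 0.09, 0.17 and 0.14, and that of all genes 0.01, 0.06, 0.05, 0.08 and 0.07. CARS was lower in HS pigs on every slide, from -0.43 to -1.53. On the last slide HS pigs were CR and F1 and TN pigs were LW, so breed and climate cannot be told apart there. With slide as a block, the counts were 13 higher and 3 lower.

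Genes that work with the synthetases were examined next. Of 11 measured partners of 16 listed, which include scaffold proteins of the complex and enzymes that modify charged tRNA, 2 rose and 0 fell (median 0.08), or 18.2% higher against 24.5% of all genes. They were SEPSECS, which forms selenocysteinyl-tRNA, at 0.22 ± 0.06 (limma, adjusted p = 0.00351), and QRSL1, which forms mitochondrial glutaminyl-tRNA, at 0.20 ± 0.08 (adjusted p = 0.0447). SEPSECS was dim, with group means of 5.86 to 6.23, below the array medians of 7.13 to 7.14.

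The amino acid response gave no common direction. Of 23 measured genes of 33 listed, 2 rose (8.70%) and 3 fell (13.0%), with a median of -0.05, against 24.5% and 16.3% of all genes. NUPR1, a stress-induced nuclear protein, was at 0.66 and GCN1L1, an activator of GCN2, at 0.36. GCN2 itself (EIF2AK4), named after its value was seen, was at -0.27 ± 0.09 (limma, adjusted p = 0.0214). DDIT3, a transcription factor induced by ATF4, was at -0.35 and CHAC1, a glutathione-degrading enzyme and target of the same pathway, at -0.34. EIF2AK4 and CHAC1 were dim, with group means of 5.22 to 5.77 and 5.53 to 6.13, below the array medians of 7.13 to 7.14. ATF4 itself was at -0.08 ± 0.10 (adjusted p = 0.497) and ASNS, the asparagine synthetase and a classic target, at -0.40 ± 0.24 (adjusted p = 0.182). The highest F1 TN pig was at 10.04 for ASNS, against a median of 6.62 in its group. F1 TN replicate 4 was at 13.27 for GARS, 13.50 for SARS and 9.09 for TARS. The F1 TN medians of these genes were 11.23, 11.39 and 7.67. The same pig read 10.46 on the DDIT3 probe that shares bases with MARS, against an F1 TN median of 8.89. EPRS was not raised in that pig, at 7.48 against a median of 7.57. CR TN replicates 2 and 3 were also high for GARS, at 12.27 and 12.33 against a median of 11.71. F1 TN replicate 4 was also the highest F1 TN pig for AARS at 11.33 and for WARS at 7.42, against medians of 10.12 and 6.43. Without it, the change of WARS was 0.33 and that of VARS2 0.25. The weight of these pigs in the changes of AARS, GARS, SARS, TARS, ASNS and DDIT3 was not examined.

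Of 15 measured genes of the interferon-gamma response among 18 listed, 5 rose (33.3%) and 1 fell (6.67%), with a median of 0.18, against 24.5% and 16.3% of all genes. PSME1, a proteasome activator subunit, was at 0.32, IFNGR2, a receptor chain, at 0.31, and TAP1, a peptide transporter for antigen presentation, at 0.30. IFNG, the cytokine, was the gene that fell, at -0.22. WARS, a target of the same cytokine, was at 0.27. In these 3 lists, 0 genes passed in the additive model without F1 pigs or with the erythroid covariate.

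EARS2 had no probe of its name, but a probe with a gene number of EARS2 was on the array. It was well above background on 17 of 35 arrays and its change was 0.08 ± 0.05 (limma, single probes, adjusted p = 0.171). A probe with a gene number of HARS, which shares 52 bases with the HARS probe, changed by 0.11 (adjusted p = 0.199). These probes were outside the rule and in none of the counts of members.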

How the data were processed

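Whole blood RNA of 35 pigs was hybridised to a custom Agilent porcine array with 60-base probes. Per the file headers, Feature Extraction 10.10.1.1 read the arrays. The scanner files, as deposited, give raw and background intensity per spot, not normalized between arrays. The authors deposited a log2 table of 39072 expressed probes, which is the quantile-normalized median intensity. Recomputed values correlated with it at r = 0.99998 (median absolute difference 0.0019). The authors' filter is not given in the sources used here. Array values have no counting depth, and precision is limited by the number of arrays.

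Gene values were means of the table's probes with 1 gene symbol (8814 genes). Two-sided tests were made with limma 3.58.1 in R 4.3.3 (lmFit, eBayes) and Benjamini-Hochberg adjustment over all genes at 0.05. The effect of HS came from breed plus climate over 35 pigs, and effects within a breed and the interaction from 6 group means. Pen, slaughter day, father and mother, random effects in the study, are not in the labels. On simulated data with this design, 29.0%, 84.0% and 98.5% of genes with log2 changes of 0.25, 0.5 and 1 were recovered. The simulation changed only a small share of the genes and drew independent noise for each pig. Its rates need not hold for the real data, where many more genes passed. Full values go to the 12 members past the threshold with the largest change, to members called only within a breed and to those with opposing probes, and of each list at most 4 genes past the threshold are named. The members, lists and rules were chosen with earlier results of these data known. KARS and the last 3 mitochondrial enzymes are given in brief outside that rule.

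Alternatives were single probes, scanner values with quantile or 75th percentile scaling, normexp background correction with an offset of 50, other filters on dim probes, slide as a block, array weights, leaving out F1 pigs or each array, and covariates for erythroid markers and array signal.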

Additional observations from a re-analysis of the deposited data

Results flagged for a closer look

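In 72 group and gene combinations, 6 groups for each of the 12 members with full values, 5 had a pig that stood apart from the rest of its group. About 5% are flagged by chance. In CR HS pigs, replicate 1 was the lowest for MARS at 9.54, against 10.18 to 10.52 in the other pigs of the group, and for FARSB at 9.26, against 9.89 to 10.22. Replicate 5 of the same group was the highest for VARS at 9.87, against 9.48 to 9.62. In CR TN pigs, replicate 3 was the highest for EPRS at 8.01, against 7.57 to 7.68. In LW TN pigs, replicate 3 was the highest for QARS at 12.03, against 11.69 to 11.80. The changes of these 5 genes stayed past the threshold when any 1 array was left out.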

How the results depend on the processing

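No paired analysis was possible because the replicate numbers follow the order of the sample records and pair no animals. For HS minus TN, 11 to 16 members were higher and 3 lower with single probes, scanner values, 75th percentile scaling, normexp correction, both other filters, the slide block and array weights, and with gene names as in the files (12 and 3), an alternative chosen after seeing the data. Without F1 pigs, 0 were higher and 0 lower. With the erythroid covariate, 2 were higher and 0 lower, and within F1 pigs 1 was higher. With the signal covariate, 6 were higher, and within F1 pigs 0 were higher and 0 lower. With array weights, 1 member was higher and 1 lower in CR pigs (MARS and CARS, against 3.53% of all genes), 6 were higher in LW pigs (7.06%), 2 differed in effect between F1 and LW pigs (CARS and AARS2, 10.5%), 1 differed for CR minus LW (4.66%) and 1 for F1 minus CR (0.272%). With the erythroid covariate, 1 differed for CR minus LW (VARS2, 1.70%). For the partners, 0 genes were higher without F1 pigs and 0 with the erythroid covariate, and 1 was lower with the slide block. For the amino acid response and the interferon-gamma response, 0 were higher and 0 lower under both of these alternatives. The cause was not tested. Leaving out 1 array at a time gave 9 to 17 members higher (9 without F1 TN replicate 1) and 3 lower in each case, and 8 to 15 higher in F1 pigs (8 without F1 TN replicate 1). No array ended the call of CARS, MARS, FARSA, EPRS, FARSB, RARS, QARS, AARS2, VARS, TARS2 or KARS. The call of VARS2 was lost without 3 of the arrays in turn, of WARS without 2, of CARS2 without 5, of IARS2 without 8 and of PARS2 without 11. No named gene-level change reversed its sign under these alternatives, but with single probes, where each gene was taken at its probe with the smallest p, RARS was at -0.82 for one probe and at 0.22, past the threshold, for the other.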
